A study of Rattus norvegicus with 36 samples.

Results

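The acute response of the rat lung to crystalline silica was described 1 day after instillation (D1), by comparing 12 of the 36 arrays of the series. The exposed group held 6 female Sprague Dawley rats that received 10 mg per rat of DQ-12, a quartz dust used as a reference silica, in 0.9% saline by instillation into the trachea. The control group held 6 female rats of the same strain that received saline alone. All were 13 weeks old at instillation, and RNA came from whole accessory lung lobe, 1 array per rat, labelled with Cy3. The same 2 groups, with other rats, were sampled at 30 (D30) and 180 (D180) days. DQ-12 served in the study as a positive control in a search for early transcripts that precede lasting lung damage, and the D1 comparison asks which genes differed 1 day after exposure. Members were all genes measured on those 12 arrays: 23940 gene symbols were tested, each by the probe with the highest mean signal. Levels below are log2 of the scanner's processed signal after quantile normalization, and a log2 difference of 1 is a 2-fold difference.

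Crystalline silica that reaches the alveoli is taken up by resident macrophages, and damaged phagocytes and epithelial cells release cytokines and chemokines that draw monocytes and neutrophils into the airspace. Injured alveolar and airway epithelium is replaced by division of progenitors such as alveolar type 2 and club cells, and macrophages can also divide in place. Dividing cells switch on E2F-driven genes for DNA replication first and genes for spindle and cytokinesis later, the latter through the MuvB complex with B-Myb and FoxM1. A lobe homogenate holds all of these cells, so fewer cells of a type and less RNA per cell cannot be told apart.

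The 12 arrays were not scanned together. All 6 DQ-12 arrays shared 1 scan date with only 1 vehicle array, replicate 3, and the other 5 vehicle arrays were scanned on 2 other dates. That vehicle array also shared a slide with 4 of the DQ-12 arrays, replicates 1, 2, 3 and 5. Over all genes, vehicle replicate 3 had a median correlation of 0.979 with its own group and of 0.981 with the DQ-12 arrays. Scan date and exposure are therefore nearly confounded, and results are given also with scan date or slide as a block, which at D1 sets the DQ-12 arrays against that single vehicle array. Between 61.3% and 71.8% of probes were well above background per array. The tissue markers were as labelled, with vehicle means of 16.4 for Sftpa1 (surfactant protein A), 16.8 for Scgb1a1 (club cell secretory protein) and 15.4 for Cav1 (caveolin-1 of alveolar type 1 cells and endothelium).

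A gene was called when it differed at least 2-fold with an adjusted p under 0.05 (limma over all 36 arrays, 2-sided, Benjamini-Hochberg over all genes tested). By this rule 736 genes (3.07%) were called, 484 higher (2.02%) and 252 lower (1.05%) in the DQ-12 rats. The split of the 2 directions depended on the scaling, since with each array scaled to its 75th percentile 337 genes were higher and 577 lower, and the median of all genes moved from -0.01 to -0.10. Regardless of the call, the DQ-12 rats were separated from the vehicle rats, all 6 higher for 5.25% of genes and all 6 lower for 5.97%. With such a separation the exact 2-sided permutation p of a single gene is 0.00216, the smallest that 6 against 6 allows. Within the shared scan date 688 of the 736 genes kept their sign and 399 differed at least 2-fold the same way, although 1 vehicle array is then the whole control. Only 101 genes (0.422%) were called in all 3 of the fits without a block, with scan date and with slide, 95 of them higher and 6 lower. Without vehicle replicate 3 the count of called genes was 955.

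Genes of cell proliferation rose together at D1. Of the 30 genes of the cell cycle and mitosis list, 23 were called higher (76.7%, against 2.02% of all genes) and none lower, and their median log2 difference was 1.85. After these values were seen, 6 further lists were drawn up to follow the programme by function, so their counts describe it and do not test it. Together the 7 lists named 181 genes, each counted once, of which 176 passed the filter on low signal. Of these 176 genes, 97 were called higher and none lower, the median difference was 1.12, and 162 were above 0. The genes of these lists made up 44 of the 95 genes that were called higher in all 3 fits.

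The regulators at the top of the cycle split by kind. E2F1, an activator that starts S phase, had E2f1 levels of 9.02, 9.27 and 9.37 (lowest, median and highest rat) in vehicle and 10.03, 10.15 and 10.46 in DQ-12. Its groups did not overlap and the adjusted p was 7.25e-10, but the difference of 0.95 ± 0.08 (SE, n = 6 rats per group) fell short of 2-fold. The atypical E2F repressors, which are themselves induced in S phase, rose more. E2f8 went from 2.90, 4.13 and 4.89 to 6.84, 6.95 and 7.32, a log2 difference of 2.92 ± 0.25 (adjusted p = 2.79e-10). E2f7 rose by 2.5 on the log2 scale. Cyclin E, the partner of CDK2 at the start of S phase, rose in both forms, with Ccne1 at 5.20, 5.45 and 6.28 in vehicle and 8.05, 8.09 and 8.62 in DQ-12, a difference of 2.59, and Ccne2 different by 1.75. By contrast, the growth-factor-responsive D cyclin Ccnd1 differed by 0.06 (adjusted p = 0.79) and Ccnd2 by -0.19 (adjusted p = 0.79). Tfdp2, a dimerisation partner of E2F proteins, was lower, at 10.80, 11.04 and 11.19 against 9.23, 10.18 and 10.35, a difference of -0.98 (adjusted p = 9.09e-06) just short of the fold threshold. The CDK inhibitors p21 (Cdkn1a) and p27 (Cdkn1b) differed by 0.14 (adjusted p = 0.62) and -0.27 (adjusted p = 0.17). The inhibitor genes Cdkn3 and Cdkn2c, by contrast, were higher. In the fits that each left out 1 rat, Cdkn3 differed by 1.66 to 2.01 and always kept its call. Cdkn2c differed by 0.94 to 1.15 and was not called in 6 of those fits. Of the 20 p53 and DNA damage targets none was called, with 3 higher and 3 lower by adjusted p alone. By adjusted p alone 7.58% of all genes were higher and 8.62% lower. Downstream, Mybl2 (B-Myb) rose by 1.79 and Foxm1 by 1.54 on the log2 scale. Of the 31 genes in the list of E2F factors, D and E cyclins and CDK inhibitors, 9 were called higher and 4 were lower by adjusted p alone, and the median was 0.35.

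Promoters are printed for 6 called genes that span the programme, because the letters known from cell cycle promoters can be seen in them. They are Top2a (topoisomerase II alpha, which untangles replicated DNA), Cdk1 with its partner Ccnb1 (cyclin B1, entry to mitosis), the mitotic kinase Plk1, the checkpoint kinase Bub1b and the proliferation marker Mki67. Each is the stretch from 200 bases before to 20 bases after the gene's start, from RefSeq on GRCr8, written 5′ to 3′ along the gene. Capitals mark an E2F-like TTTNNCGC, a CCAAT box or the CHR letters TTTGAA (cell cycle genes homology region) on either strand, and in Mki67 a TTTGAA and a CCAAT match overlap.
Top2a, chr10:84473074-84473293, minus strand: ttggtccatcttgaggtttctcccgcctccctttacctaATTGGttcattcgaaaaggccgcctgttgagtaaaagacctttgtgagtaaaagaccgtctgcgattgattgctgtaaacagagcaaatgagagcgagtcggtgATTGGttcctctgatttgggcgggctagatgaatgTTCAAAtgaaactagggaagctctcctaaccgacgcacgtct
Cdk1, chr20:19265093-19265312, plus strand: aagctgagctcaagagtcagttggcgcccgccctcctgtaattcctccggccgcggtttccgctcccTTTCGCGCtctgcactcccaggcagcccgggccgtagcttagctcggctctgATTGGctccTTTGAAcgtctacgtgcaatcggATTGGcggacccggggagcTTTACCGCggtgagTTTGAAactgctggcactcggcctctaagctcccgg
Mki67, chr1:199952574-199952793, minus strand: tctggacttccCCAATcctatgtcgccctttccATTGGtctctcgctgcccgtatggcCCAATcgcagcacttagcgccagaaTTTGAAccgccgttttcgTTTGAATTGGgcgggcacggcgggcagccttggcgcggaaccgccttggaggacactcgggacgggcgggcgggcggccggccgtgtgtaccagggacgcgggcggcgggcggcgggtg
Ccnb1, chr2:33655206-33655425, minus strand: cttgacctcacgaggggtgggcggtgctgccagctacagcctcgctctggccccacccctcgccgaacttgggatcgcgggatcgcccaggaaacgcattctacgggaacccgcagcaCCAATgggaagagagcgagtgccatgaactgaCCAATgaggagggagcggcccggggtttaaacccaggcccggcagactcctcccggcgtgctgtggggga
Plk1, chr1:186147458-186147677, plus strand: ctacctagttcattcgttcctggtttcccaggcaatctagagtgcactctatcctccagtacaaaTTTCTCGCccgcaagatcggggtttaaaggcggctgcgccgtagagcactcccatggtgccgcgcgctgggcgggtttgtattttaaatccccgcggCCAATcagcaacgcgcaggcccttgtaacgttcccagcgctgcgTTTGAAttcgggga
Bub1b, chr3:126016867-126017086, plus strand: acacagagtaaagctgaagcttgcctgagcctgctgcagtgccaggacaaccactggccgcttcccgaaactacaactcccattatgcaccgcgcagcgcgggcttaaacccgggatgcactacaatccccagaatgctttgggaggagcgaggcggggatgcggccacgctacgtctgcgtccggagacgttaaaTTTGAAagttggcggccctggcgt
These motifs were chosen after the values were seen and were searched on both strands from 250 before to 50 after the start. Of the 30 genes of the cell cycle and mitosis list, 22 had a promoter in the table. The E2F-like letters stood in 8 of them (36.4%) against 5.19% of all 27457 promoters, CCAAT in 15 (68.2%) against 37.7%, and TTTGAA in 9 (40.9%) against 18.1%. Over the 147 proliferation genes with a promoter the shares were 25.2%, 51.7% and 36.1%. A match is a run of letters and not evidence of a bound factor.

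Genes of origin licensing and of the replicative helicase came next in the order of the cycle. Cdc6, which loads the MCM helicase onto origins, had levels of 3.77, 4.02 and 4.90 in vehicle and 6.44, 6.97 and 7.39 in DQ-12, a difference of 2.79 ± 0.29 (adjusted p = 2.63e-08). Cdc45, which activates the helicase, was at 8.87, 9.02 and 9.34 against 10.61, 10.80 and 11.14, a difference of 1.77 ± 0.11 (adjusted p = 4.82e-13). The helicase subunits Mcm2 and Mcm5 rose by 1.36 and 1.97 on the log2 scale. The group was not uniform, since Orc2 of the origin recognition complex was lower by adjusted p, with a difference of -0.49 (adjusted p = 0.00407). In all, 13 of 24 licensing and helicase genes were called higher, with a median of 1.04.

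Genes that supply nucleotides and copy DNA rose as well. Thymidine kinase 1 (Tk1), which salvages thymidine in S phase, was at 7.90, 8.05 and 8.70 in vehicle and at 10.33, 10.55 and 11.05 in DQ-12, a difference of 2.46 ± 0.16 (adjusted p = 2.60e-12). Rrm2, the S-phase subunit of ribonucleotide reductase, was at 10.08, 10.47 and 11.03 against 11.77, 12.72 and 13.07, a difference of 2.12. The replication clamp Pcna rose less, by 0.53 on the log2 scale with non-overlapping groups (adjusted p = 0.000278), and was not called. The histone chaperones of new DNA rose, Chaf1b by 2.09 and Asf1b by 2.80 on the log2 scale, the latter from 5 DQ-12 rats because an outlier spot was left out in replicate 6. Of the 27 genes of this list 12 were called, 26 were higher by adjusted p and all 27 were above 0. Of the 27 genes for homologous recombination and Fanconi repair, which act on stalled forks, 12 were called higher. The median of that list was 0.80, and 24 of the 27 were above 0. With scan date as a block the median was 0.48 and 5 were called, and with slide 0.42 and 2.

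Genes of mitosis rose in most cases more than 2-fold. Top2a was at 6.42, 6.80 and 7.24 in vehicle and at 9.03, 9.46 and 9.89 in DQ-12, so the lowest exposed rat stood above the highest control, and the difference was 2.71 ± 0.15 (adjusted p = 3.49e-14). Ccna2 (cyclin A2) was at 6.95, 7.15 and 7.69 against 9.23, 9.79 and 10.32, a difference of 2.55 ± 0.18 (adjusted p = 7.19e-12). Cdk1, the kinase both cyclins activate, was at 9.63, 9.95 and 10.35 against 11.53, 12.07 and 12.52, a difference of 2.04 ± 0.16 (adjusted p = 8.01e-11). The growth fraction marker Mki67 was at 9.07, 9.47 and 9.63 against 10.71, 11.28 and 11.62, a difference of 1.85 ± 0.14 (adjusted p = 7.26e-11). In the kinetochore and checkpoint list 18 of 30 genes tested were called higher. The checkpoint kinase Ttk (Mps1) was at 5.08, 5.40 and 6.09 against 7.65, 8.09 and 8.66, a difference of 2.63. Bub1b differed by 2.79 and the kinetochore protein Cenph by 2.38. In the list of spindle motors and cytokinesis 26 of 30 genes were called higher, with a median of 1.69. The cytokinesis exchange factor Ect2 was at 7.17, 7.52 and 7.86 against 9.57, 10.16 and 10.79, a difference of 2.69 ± 0.19 (adjusted p = 7.19e-12). Not all mitotic kinases were called: Aurka differed by 0.66 (adjusted p = 0.00568) and Aurkb by 0.89 (adjusted p = 0.072).

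**Figure D1:**
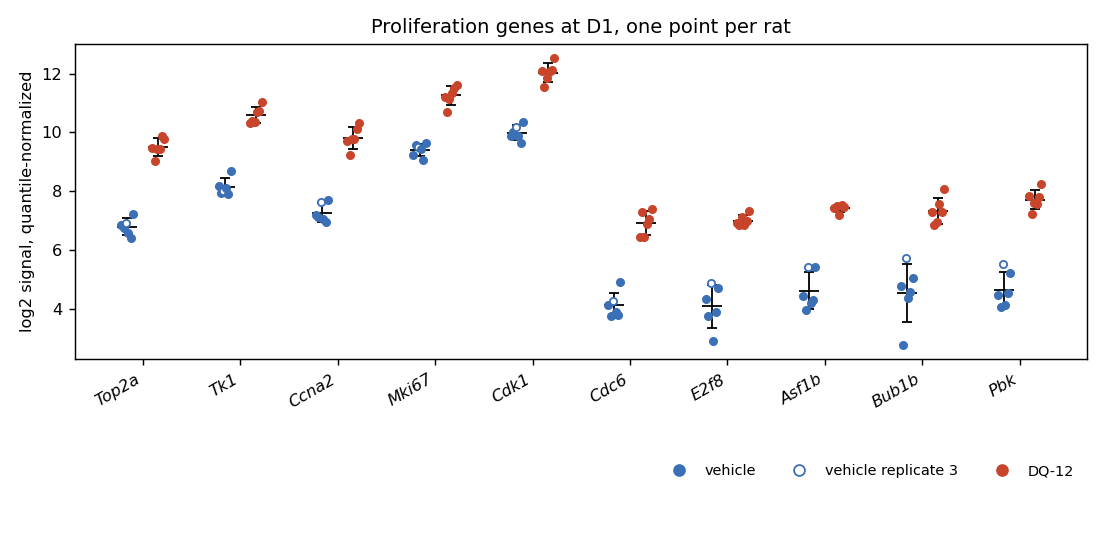
Log2 signal (y axis) of 10 proliferation genes at D1 (x axis), 1 point per rat, with the mean and SD of each group as bars. Vehicle rats are blue, with replicate 3, the vehicle array scanned with the DQ-12 arrays, as an open circle, and DQ-12 rats are red. For all 10 genes the lowest DQ-12 rat lay above the highest vehicle rat, vehicle replicate 3 included, as for Top2a with 9.03 against 7.24.

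The exposed rats did not differ from each other in the same way across the programme. DQ-12 replicate 2 had the lowest mean of the 6 for spindle motors and cytokinesis, 7.29 against 7.86 to 8.49 in the other 5. For origin licensing and helicase genes its mean was 8.43, the second highest of a range from 8.09 to 8.56. For Ccnb1 that rat was at 7.22, against 8.52 to 9.52 in the others and at most 6.99 in vehicle. For Plk1 it was at 8.75, inside the vehicle range that reached 8.90, while the others were at 10.06 or above. For Mcm5 it was the highest of all, at 11.57. Without that rat 98 of the 176 genes were called higher, so the count did not rest on it.

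The proliferation genes kept their difference within the shared scan date. All 97 called genes were higher in the 6 DQ-12 arrays than in vehicle replicate 3 of the same date, the smallest difference being 0.48, and 88 of them differed at least 2-fold. The same arrays served to call these genes, so this agreement is in part set by that choice. Of the other 387 genes called higher, 368 kept their sign and 224 reached 2-fold, and of the 252 called lower 223 and 87 did. With scan date as a block the median over the 176 genes was 1.1 and 58 were called, Bub1b at 1.61 (adjusted p = 0.12) and Mybl2 at 1.18 (adjusted p = 0.11) no longer among them, and with slide as a block it was 0.95 and 45 were called, E2f7, Ccne2, Ccnb1 and Plk1 no longer among them. Leaving out any single rat gave between 92 and 101 genes called higher and at most 1 called lower. Signal was low in part of the programme, since 6 of the 97 genes cleared the background well on no vehicle array, while E2f8, Asf1b and Bub1b were well above it on 4 and Cdc6 on 3 of the 6. Vehicle replicate 3 itself lay inside the range of the other vehicle rats for the cell cycle and mitosis list, with a mean of 8.46 against 8.07 to 8.60, while the DQ-12 rats were at 9.58 to 10.30. It lay above the other vehicle rats in 2 of the 7 lists, at 6.41 against 5.96 to 6.37 for homologous recombination and Fanconi repair and at 8.83 against 8.52 to 8.77 for E2F factors and cyclins, with the DQ-12 rats at 6.97 to 7.35 and 9.1 to 9.45.

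**Figure D2:**
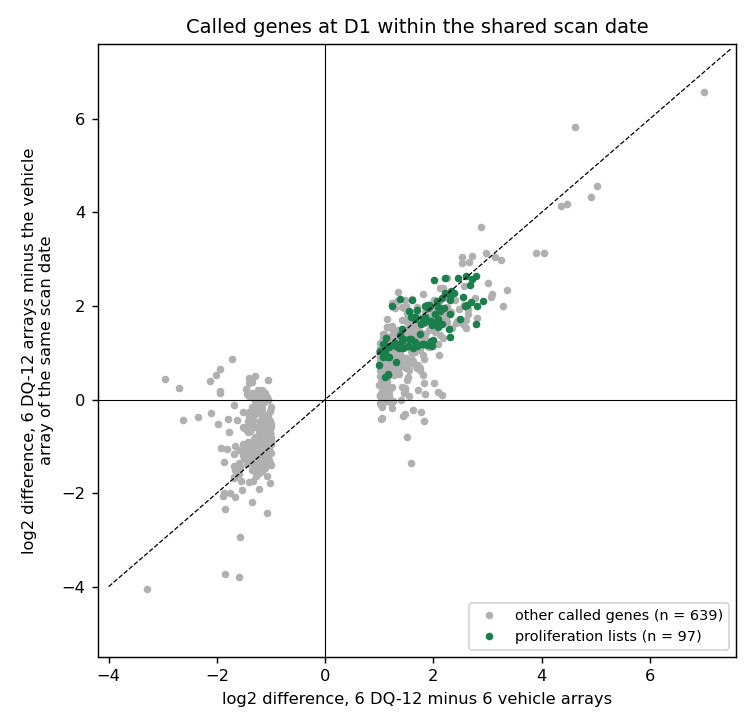
Each point is 1 of the 736 genes called at D1, with the log2 difference between 6 DQ-12 and 6 vehicle arrays on the x axis and the difference between the 6 DQ-12 arrays and the 1 vehicle array of the same scan date on the y axis. The dashed line marks equal values. Green points are the 97 called genes of the proliferation lists, all above 0 on both axes, and grey points are the other 639.

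Without a block, change in proliferation genes was larger at D1 than at D30, by the difference of the 2 exposure effects in 1 model. All lists but cell cycle and mitosis were drawn up after the D1 values were seen. Counts over the 176 genes therefore describe this difference and do not test it. In the cell cycle and mitosis list D1 exceeded D30 past the call threshold for 17 of 30 genes. Its medians were 1.85 at D1, 0.564 at D30 and 1.18 at D180. The median over the 176 genes was 1.12 at D1, 0.32 at D30 and 0.59 at D180, and the numbers called were 97, 13 and 55 of 176. The D1 effect exceeded the D30 effect past the same threshold for 55 of them, against 0.944% of all genes that differed in either direction. It exceeded the D180 effect for 14, against 1.55% of all genes. For Top2a the exposure effect was 2.71 at D1, 0.53 at D30 and 1.51 at D180, and D1 exceeded D30 by 2.18 (adjusted p = 1.90e-07) and D180 by 1.20 (adjusted p = 0.000644). For Tk1 D1 exceeded D30 by 1.70 (adjusted p = 5.04e-05). Scan dates limit this comparison: with scan date as a block the D1 effect exceeded that at D30 for 4 genes and that at D180 for 0, and with slide for 3 and 1. Top2a was still larger at D1 by 2.17 (adjusted p = 0.00448) with scan date and by 2.11 (adjusted p = 0.0174) with slide as a block, and Tk1 by 1.74 (adjusted p = 0.0487) and 1.58 (adjusted p = 0.0287). For Cdk1 the difference of 1.42 became 1.28 (adjusted p = 0.355) with scan date blocked.

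**Figure D3:**
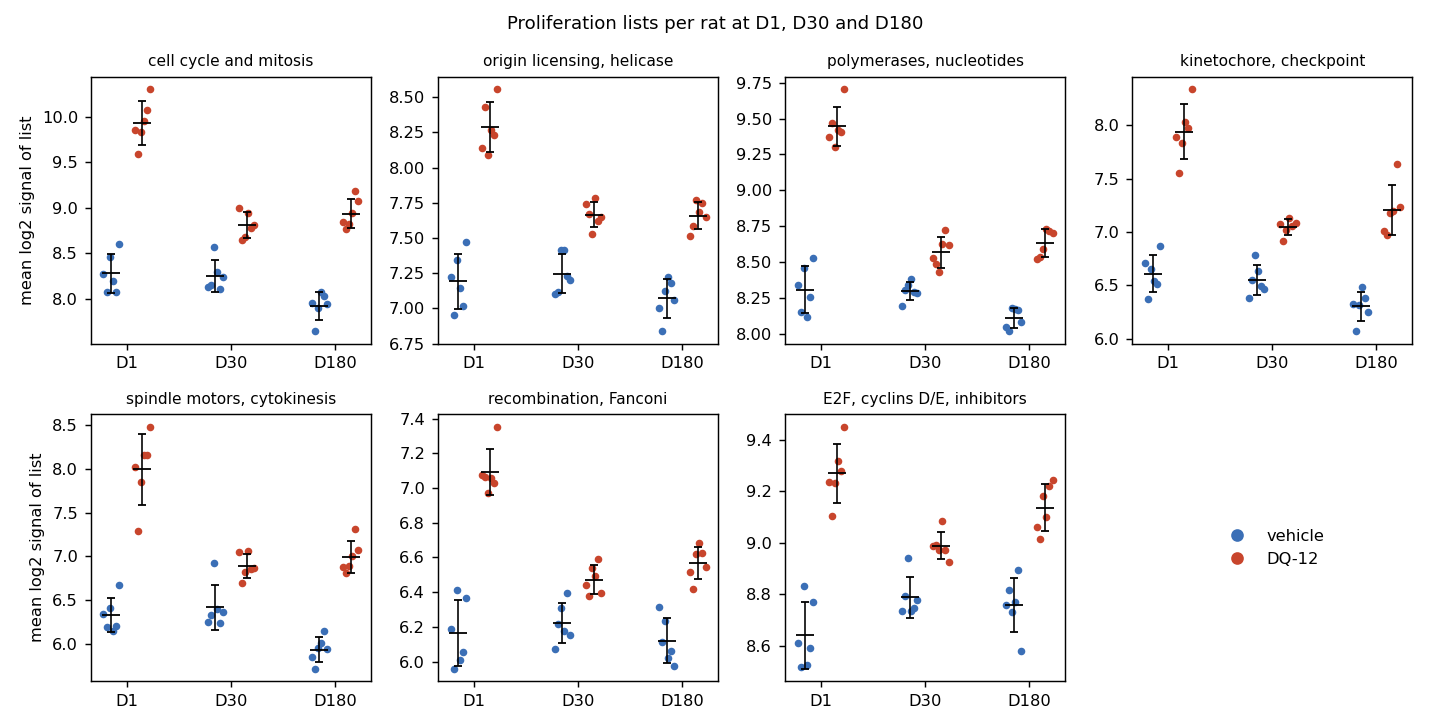
Mean log2 signal over the members of each of the 7 proliferation lists (y axis, 1 panel per list) in each rat at D1, D30 and D180 (x axis), vehicle in blue and DQ-12 in red, with the mean and SD of 6 rats as bars. The groups stood apart at D1 in the cell cycle and mitosis list, at 8.07 to 8.60 for vehicle and 9.58 to 10.30 for DQ-12. In this list they did not overlap at the later days either. At D30 the highest vehicle rat was at 8.57 and the lowest DQ-12 rat at 8.65. At D180 the highest vehicle rat was at 8.07 and the lowest DQ-12 rat at 8.77.

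Genes of the acute-phase list rose selectively. Of 25 acute-phase genes 6 were called higher and none lower (24%, against 3.07% of all genes), and their median was 0.47. Orm1, which encodes alpha-1-acid glycoprotein, had levels of 4.72, 5.29 and 6.18 in vehicle and 9.93, 10.31 and 11.50 in DQ-12, a difference of 5.02 ± 0.53 (adjusted p = 2.37e-08), and it was 4.57 (adjusted p = 0.014) with scan date blocked. The gene carried as Saal1 by the array design was at 10.70, 11.87 and 12.02 against 15.05, 16.12 and 16.61, a difference of 4.47, and 4.18 (adjusted p = 0.00153) with scan date blocked. Whether Saal1 belongs with the acute-phase genes was not tested. The protease inhibitor Serpina3n was at 5.92, 6.40 and 6.87 against 7.81, 8.45 and 9.99, a difference of 2.23. Complement C3 was at 13.60, 13.79 and 13.98 against 14.42, 14.90 and 15.09, a difference of 1.08, about 2-fold. Other members did not pass, and haptoglobin (Hp) differed by 0.17 (adjusted p = 0.52) and the lipopolysaccharide-binding protein Lbp by 0.47 (adjusted p = 0.12). With either block Orm1 and Saal1 were the 2 genes of the list called. The promoter of Orm1 is shown because it had the largest difference of the list, from 240 bases before the start to the start, with capitals for an AP-1-like TGANTCA and a C/EBP-like TTNNGCAA match.
Orm1, chr5:81788269-81788508, plus strand: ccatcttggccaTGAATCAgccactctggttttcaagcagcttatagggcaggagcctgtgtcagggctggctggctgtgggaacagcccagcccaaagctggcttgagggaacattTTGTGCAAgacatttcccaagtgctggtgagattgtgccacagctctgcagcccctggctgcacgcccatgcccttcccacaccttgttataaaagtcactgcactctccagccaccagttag
Over the 15 largest rises, 10 had a promoter in the table, and 3 held the AP-1-like letters (30%) against 7.33% of all promoters, 2 the C/EBP-like letters against 10.5%, 1 the antioxidant-response-like TGACNNNGC against 12.2%, and none the NF-κB-like letters (1.51% of all) or the STAT-like TTCCNGGAA (1.23%).

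Several CC chemokines, which attract monocytes and lymphocytes, rose. Among 19 CC chemokines 7 were called higher (36.8%, against 3.07% of all genes called), with a list median of 0.32. Ccl2 (MCP-1), the main monocyte attractant, was at 8.75, 9.52 and 10.00 in vehicle and 11.57, 12.15 and 12.42 in DQ-12, a difference of 2.56 ± 0.24 (adjusted p = 3.33e-09). The CCR4 ligands Ccl17 and Ccl22, which recruit T cells of the type 2 kind, rose by 1.87 and 1.58 on the log2 scale, Ccl22 from 10.19, 10.54 and 11.01 to 11.75, 12.11 and 12.55. Ccl3 (MIP-1 alpha) differed by 1.09, and by just under 2-fold without vehicle replicate 1 (0.995), while its close relative Ccl4 differed by 0.32 (adjusted p = 0.107). Ccl20, the ligand of CCR6, was lower by adjusted p, with a difference of -0.73 (adjusted p = 0.039). Of 8 neutrophil chemokines and receptors only Cxcl2 was called, at 7.65, 8.79 and 9.07 against 9.07, 9.78 and 10.57, with a difference of 1.34 ± 0.37 (adjusted p = 0.011), and it was not called with scan date (0.81, adjusted p = 0.74) or slide (1.01, adjusted p = 0.62) blocked. Its paralogs went the other way or did not pass: Cxcl1 was at 10.96, 11.61 and 11.92 against 10.27, 10.57 and 11.53, a difference of -0.76 (adjusted p = 0.046), and Cxcl3 differed by -0.31 (adjusted p = 0.54). The exposure effect on Cxcl1 was 1.17 at D30 and 0.89 at D180, and the D1 effect was smaller than both (adjusted p = 0.00388 and 0.00826). With scan date as a block Ccl2 was the only one of the 19 CC chemokines called, at 2.02 (adjusted p = 0.033), and with slide none was, Ccl2 being at 2.10 (adjusted p = 0.053).

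Classic early cytokines were not among the changes. Il1b differed by 0.21 (adjusted p = 0.54), Tnf by 0.51 (adjusted p = 0.066), and Il6 did not clear the background on any of the 12 arrays. None of 25 TNF and NF-κB feedback genes was called (limma), and without DQ-12 replicate 1 the count was 1. By adjusted p alone 3 were higher and 1 lower, against 7.58% and 8.62% of all genes. Il1r2, the decoy receptor that binds IL-1 without signalling, was the exception in the IL-1 list of 19 genes, at 7.05, 7.29 and 7.82 against 9.72, 10.22 and 11.13, a difference of 2.98 that stayed at 3.12 (adjusted p = 0.0014) with scan date blocked. In the IL-10 family list of 10 genes Il24 was the only call. Il24, a cytokine that acts on epithelial cells, was at 4.07, 4.28 and 4.64 in vehicle and at 7.41, 8.74 and 9.89 in DQ-12, a difference of 4.35 ± 0.47 (adjusted p = 4.56e-08), and 4.14 with scan date as a block (adjusted p = 0.017). Its effect was 0.57 at D30, smaller than at D1 by 3.79 (adjusted p = 0.00114), though not past the threshold with scan date as a block (adjusted p = 0.233). Among 17 genes of the IL-6 family and STAT3 signalling 2 were called higher (11.8%, against 3.07% of all genes called), with a median of -0.03. Oncostatin M (Osm), made by activated myeloid cells, was at 7.4, 7.75 and 8.22 against 9.31, 9.49 and 9.68, a difference of 1.67 ± 0.20 (adjusted p = 4.21e-07), or 1.25 (adjusted p = 0.116) with scan date blocked. The feedback inhibitor Socs1 was at 3.82, 4.79 and 5.65 against 5.46, 5.74 and 6.55, a difference of 1.18 (adjusted p = 0.035) that was not called in 6 of the 12 fits without 1 rat, those without vehicle replicates 1, 2 or 6 or DQ-12 replicates 1, 2 or 3, and was 0.18 (adjusted p = 0.97) with scan date blocked. Socs3, its relative, differed by 0.19 (adjusted p = 0.52).

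**Figure D4:**
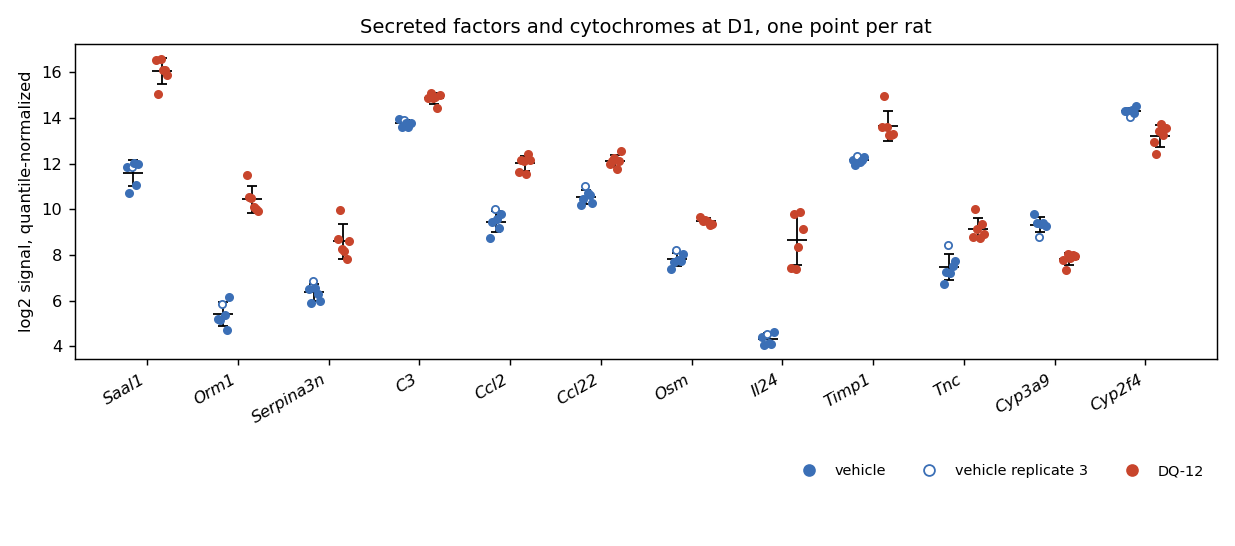
Log2 signal (y axis) at D1 of 10 genes from the acute-phase, chemokine, cytokine and matrix lists and 2 cytochrome P450 genes (x axis). Each point is 1 rat, with the mean and SD of each group as bars. Vehicle rats are blue with replicate 3 open, and DQ-12 rats are red. DQ-12 rats lay above vehicle for the 10 genes of these lists, as for Il24 with 7.41 or more against 4.64 or less. They lay below for Cyp3a9, with at most 8.03 against at least 8.81.

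Growth factor and matrix genes changed in part. Of 33 wound and matrix genes 7 were called higher (21.2%, against 3.07% of all genes called), with a median of 0.34. The matrix protease gene Mmp12 differed by 3.36 ± 0.29 (adjusted p = 5.005e-10) with groups that did not overlap. Its difference was 2.35 with scan date and 2.34 with slide blocked. Amphiregulin (Areg), an EGF receptor ligand of epithelial repair, was at 8.47, 9.25 and 9.79 in vehicle and 10.20, 10.84 and 11.40 in DQ-12, a difference of 1.64 ± 0.32 (adjusted p = 0.000372), or 1.01 (adjusted p = 0.52) with scan date blocked. The related ligand Ereg differed by 1.21 (adjusted p = 0.00773) with overlapping groups, or 0.92 (adjusted p = 0.65) with scan date blocked, and Hbegf by 0.33 (adjusted p = 0.19). Tenascin-C (Tnc), a matrix protein of injured tissue, was at 6.73, 7.38 and 8.45 against 8.76, 9.03 and 10.00, a difference of 1.68 ± 0.26 (adjusted p = 1.54e-05). Its highest vehicle rat was replicate 3, and blocking on scan date left a difference of 0.71 (adjusted p = 0.453). Timp1, an inhibitor of matrix proteases, was at 11.96, 12.16 and 12.35 against 13.24, 13.45 and 14.98, a difference of 1.5 ± 0.18 (adjusted p = 3.86e-07), or 1.31 (adjusted p = 0.091) with scan date blocked. Both were larger at D1 than at D30, Tnc by 1.66 (adjusted p = 0.00922) and Timp1 by 1.21 (adjusted p = 0.00788), though neither with scan date as a block (adjusted p = 0.77 and 0.73). Fibronectin (Fn1) was higher in all DQ-12 rats by 0.91 (adjusted p = 2.97e-05), and the fibrillar collagen gene Col1a1 differed by 0.19 (adjusted p = 0.55).

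Stress genes were called in small numbers, against 3.07% of all genes. The share called was 15.4% for metallothioneins and zinc transporters and 7.14% for interferon-stimulated genes, with 2 genes called in each list. It was 5% for NRF2 antioxidant genes and 4.35% for heat shock and unfolded protein response. A single call made up each of the latter shares, which lie near that of all genes. The metal-binding genes Mt1 and Mt2A were the 2 calls of 13 metallothionein and zinc transporter genes. Mt1 was at 10.76, 11 and 11.31 against 11.89, 12.06 and 12.22, a difference of 1.06 (adjusted p = 0.000328), and Mt2A differed by 1.13. With scan date blocked they were 0.98 (adjusted p = 0.081) and 1.09 (adjusted p = 0.21), while Mt1 was called with slide blocked. Of 20 NRF2 antioxidant genes 8 were higher by adjusted p (against 7.58% of all genes) and 1 was called, Slc7a11, the cystine importer, at 5.32, 5.55 and 6.08 against 6.64, 7.19 and 8.22, a difference of 1.60 (adjusted p = 7.86e-05), or 1.17 (adjusted p = 0.24) with scan date blocked. Heme oxygenase 1 (Hmox1) differed by 0.74 (adjusted p = 0.00525) and Nqo1 by -0.26 (adjusted p = 0.21). Of 23 heat shock and unfolded protein response genes only Sdf2l1, a chaperone partner of the endoplasmic reticulum, was called, with a difference of 1.32, or 1.40 (adjusted p = 0.12) with scan date blocked, while the central chaperone BiP (Hspa5) differed by 0.39 (adjusted p = 0.30). Among 28 interferon-stimulated genes Cxcl10 and Ifit3 were called, with differences of 1.61 (adjusted p = 0.028) and 1.06 (adjusted p = 0.016), or 0.84 (adjusted p = 0.81) and 1.31 (adjusted p = 0.32) with scan date blocked. In both genes the groups overlapped, and no gene of the list was called without DQ-12 replicate 1, 3 or 6, while Cxcl10 also lost its call without vehicle replicate 1, 2 or 4.

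Some genes of sterol and polyamine synthesis rose. Of 22 genes for cholesterol and fatty acid synthesis 4 were called higher (18.2%, against 3.07% of all genes called), all close to 2-fold. The median was 0.49. Fdps, which makes farnesyl diphosphate, was at 11.15, 11.73 and 12.08 against 12.59, 12.68 and 12.90, a difference of 1.01 (adjusted p = 3.12e-05), and Cyp51, a sterol demethylase, differed by 1.05. With either block none was called. These calls lay at the fold threshold, with none left without vehicle replicate 4 or DQ-12 replicate 4, 2 without vehicle replicate 1 or DQ-12 replicate 6, and 6 without vehicle replicate 6. Srebf1, the transcription factor that drives fatty acid synthesis, was lower by adjusted p but not called, at 11.36, 11.68 and 12 against 10.17, 10.93 and 11.15, a difference of -0.84 (adjusted p = 0.000815). Odc1, which makes polyamines for growing cells, was at 9.82, 10.02 and 10.43 against 10.87, 11.01 and 11.43, a difference of 1.02 (adjusted p = 1.02e-06), and kept 1.06 with either block. It was just short of 2-fold without vehicle replicate 1 or 4 or DQ-12 replicate 2 or 6, at 0.94 to 1.00. Of 25 glycolysis and hypoxia genes the lactate exporter Slc16a3 was the 1 call, with a difference of 1.13, or 1.1 (adjusted p = 0.18) with scan date and 1.14 (adjusted p = 0.011) with slide blocked.

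Some cytochrome P450 genes, whose enzymes detoxify inhaled compounds, fell. Of 21 genes none was called higher and 4 lower (19%, against 3.07% of all genes called), and the median was -0.42. Cyp3a9 was at 8.81, 9.37 and 9.79 in vehicle and 7.33, 7.93 and 8.03 in DQ-12, a difference of -1.5 ± 0.15 (adjusted p = 6.90e-09), and -0.97 (adjusted p = 0.027) with scan date blocked. Cyp2f4, the club cell enzyme of naphthalene metabolism, was at 14.05, 14.32 and 14.54 against 12.42, 13.35 and 13.72, a difference of -1.07 (adjusted p = 7.00e-05) that fell short of 2-fold without DQ-12 replicate 2 (-0.91) and was -0.82 (adjusted p = 0.31) with scan date blocked. Cyp1a2 was called, but it was well above background on only 2 vehicle arrays and no DQ-12 array, and with scan date or slide as a block it was higher by 0.13 and 0.14. The vehicle array of the shared scan date had a list mean of 8.80, below the 9.0 to 9.33 of the other vehicle rats and inside the 8.49 to 8.89 of the DQ-12 rats, and the list median was -0.17 with scan date as a block, so exposure and scan date cannot be told apart here. The club cell marker Scgb1a1 differed by -0.35 (adjusted p = 0.063), and by -0.04 with scan date as a block.

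Receptors and lectins of myeloid cells were mixed. Both lists here were drawn up after the values were seen. Of 18 C-type lectin receptor genes 8 were called higher and 3 were lower by adjusted p. Their median was 0.365, or 0.341 with scan date and 0.194 with slide as a block, and most of these calls were lost with each block. Clec5a, an activating receptor of myeloid cells, was at 5.10, 5.45 and 6.16 against 6.49, 6.98 and 7.31, a difference of 1.32 (adjusted p = 0.000166), and 1.40 (adjusted p = 0.042) with scan date blocked, but 1.5 (adjusted p = 0.051) with slide blocked. Clec7a (dectin-1), the receptor for fungal glucans, was lower, at 11.47, 11.86 and 11.91 against 10.34, 11.27 and 11.33, a difference of -0.65 (adjusted p = 0.00295). Of 21 resistin-like, chitinase-like and type 2 genes 5 were called higher and 1 lower. The median of this list was 0.529, or -0.0036 with scan date and -0.0797 with slide as a block. Most of its calls were also lost with each block. Chi3l1, a secreted chitinase-like protein, was at 9.58, 9.72 and 10.11 against 11.55, 11.70 and 12.10, a difference of 1.95 ± 0.19 (adjusted p = 2.98e-09), and 1.68 (adjusted p = 0.00234) with scan date blocked. Retnla, made by alternatively activated macrophages and airway epithelium, was at 9.04, 10.54 and 11.25 against 11.66, 13.01 and 14.07, a difference of 2.60 ± 0.49 (adjusted p = 0.000314), or 1.71 (adjusted p = 0.45) with scan date blocked. The cytokines that usually induce it did not pass, Il4 with a difference of -0.13 (adjusted p = 0.90) and Il13 with 0.17 (adjusted p = 0.86). Itln1 was called at 1.58, yet vehicle replicate 3, at 11.24, was above the highest other vehicle rat at 8.40, the sign turned to -1.36 with scan date as a block, and the call was lost in 6 of the 12 fits without 1 rat, those without vehicle replicates 1, 2, 4 or 5 or DQ-12 replicates 3 or 6.

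Cell type markers were examined in the same way. Of 20 neutrophil markers 2 were called (10%, against 3.07% of all genes). Their median was 0.41, or 0.81 with scan date and 0.77 with slide as a block. The list mean per rat was 6.82 to 7.36 in DQ-12 against 6.60 to 6.79 in vehicle. The log2 of their summed signal overlapped, at 14.03 to 15.06 against 13.61 to 14.53. The most abundant neutrophil transcripts did not pass, with S100a8 different by 0.38 (adjusted p = 0.33) and S100a9 by 0.40 (adjusted p = 0.31). Of 22 monocyte and macrophage markers only Fcgr2b was called (4.55%, near the 3.07% of all genes). Its difference was 1.38, or 1.36 and not called with scan date blocked. By adjusted p 8 of these markers were higher, against 7.58% of all genes. The list mean was 9.31 to 9.49 against 8.98 to 9.07, with overlapping summed signal of 18.22 to 18.40 against 18.35 to 18.38. The monocyte receptor Ccr2 differed by 0.89 (adjusted p = 0.00411). Of 12 alveolar type 1 markers none was called and none was above 0, 7 were lower by adjusted p (against 8.62% of all genes) and the median was -0.33. Cav1 was at 15.30, 15.43 and 15.50 against 14.60, 14.88 and 15, a difference of -0.56 (adjusted p = 9.20e-05), and the list median was -0.32 with scan date and -0.37 with slide as a block. Alveolar type 2 markers had a median of 0.13, with Sftpa1 higher by 0.48 (adjusted p = 0.000534). Erythroid markers had a median of -0.58, which became -0.02 with scan date and 0.03 with slide as a block. The median of the T and NK cell markers was -0.12, or -0.28 with scan date and -0.48 with slide as a block. The natural killer receptor Klrd1 differed by -0.73 (adjusted p = 0.0207) and was not called, and by -1.27 with slide blocked. The slide block sets DQ-12 arrays against vehicle replicate 3 alone, which stood apart for Klrd1 at 9.02, the nearest other vehicle rat being at 8.65. Airway club and ciliated cell markers had list means of 11.53 to 11.72 in DQ-12, all below the 11.89 to 12.05 of vehicle. Of these 13 markers 1 was called lower and 5 were lower by adjusted p (against 8.62% of all genes). Their median was -0.28, or -0.14 with scan date as a block. Without a block, no T and NK cell, B cell, mast cell, endothelial or cardiac marker was called. Skeletal muscle markers had list means of 5.54 to 8.95 in DQ-12 and 5.47 to 5.73 in vehicle, with 1 gene called in each direction. The DQ-12 rats were uneven, the SD of these means being 1.34 against 0.11 in vehicle. Myh1, the gene called higher, was at 10.2 in DQ-12 replicate 5, the nearest other DQ-12 rat being at 5.79. Myh1 lost its call in 7 of the 12 fits without 1 rat. Whether shifts in these cell types account for any change above was not tested.

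**Figure D5:**
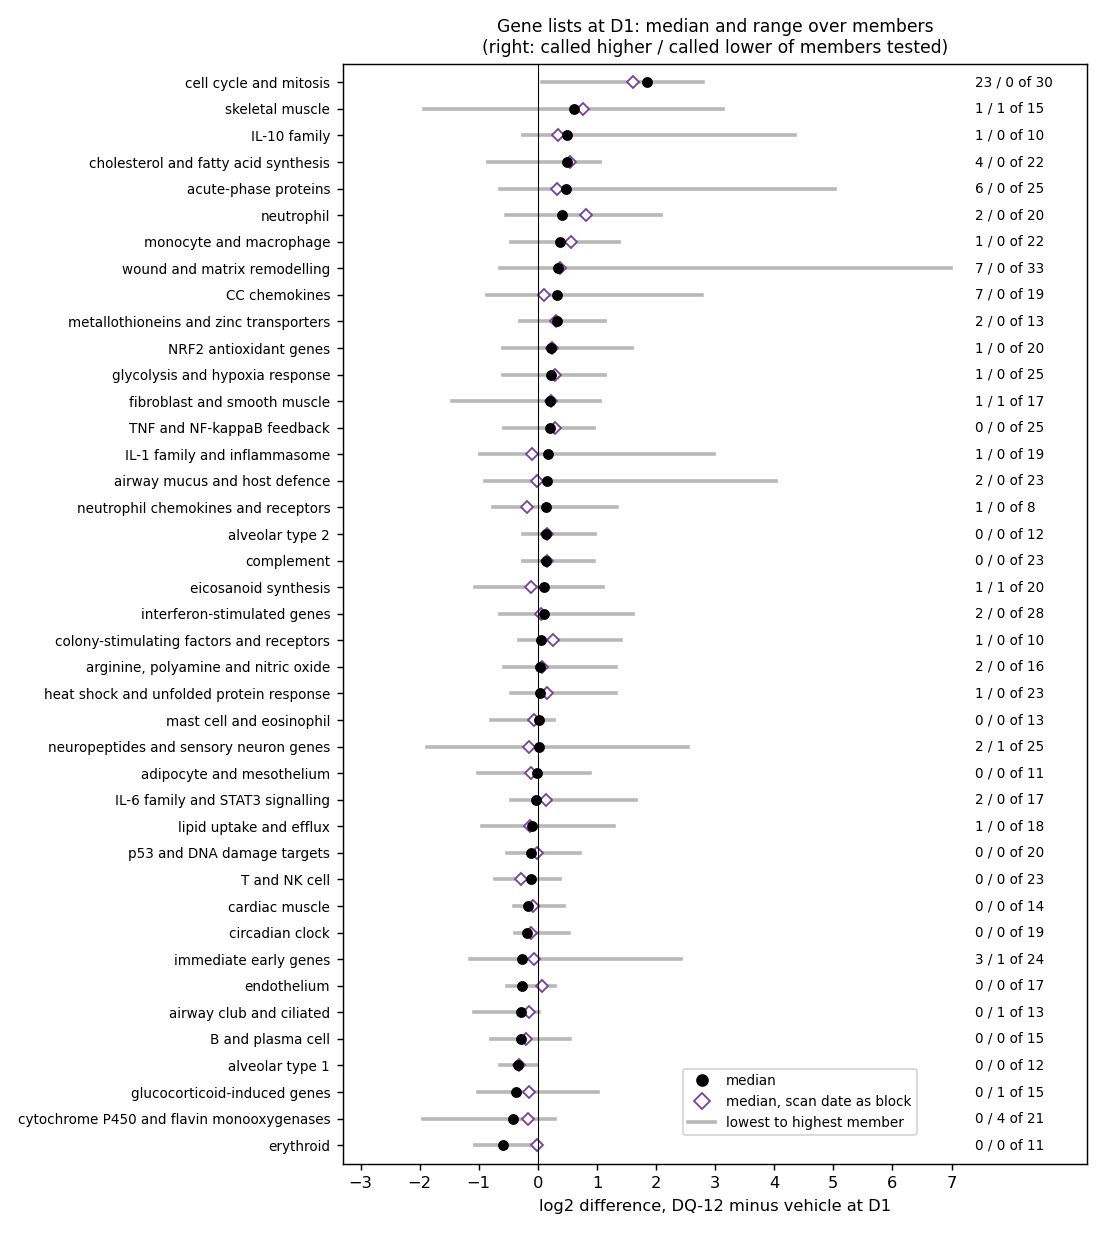
Log2 difference between DQ-12 and vehicle at D1 (x axis) for the 41 gene lists other than those drawn up after the values were seen (y axis): black dots are the median over members, open purple diamonds the median with scan date as a block, and grey lines run from the lowest to the highest member. The counts at the right are genes called higher and lower of those tested. The cell cycle and mitosis list stood at the top with a median of 1.85 and 23 of 30 genes called, and the acute-phase list had a median of 0.47 with 6 of 25 called.

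Of the genes called lower, a few are described here. Among the largest falls with separated groups were Tac1 and Serpinb10. Serpinb10 differed by -1.86 ± 0.29 (adjusted p = 2.57e-05), and by -2 with scan date and -2.23 with slide blocked. Tac1 differed by -1.87 ± 0.23 (adjusted p = 3.18e-07). The difference for Tac1 shrank to -1.33 with scan date and -1.475 with slide blocked, and it was called with neither block. Vsig4, a complement receptor of resident tissue macrophages, was at 7.79, 9.14 and 9.81 in vehicle and 4.21, 5.58 and 8.54 in DQ-12. Its groups overlapped through DQ-12 replicate 6 at 8.54, the other 5 DQ-12 rats being at 5.69 or below. The difference was -3.3 ± 0.64 (adjusted p = 0.000435) and -4.05 (adjusted p = 0.12) with scan date blocked, and the effect at D30 was 0.56. Without that rat the difference was -3.86. The macrophage mannose receptor Mrc1 differed by -0.46 (adjusted p = 0.12), and by -0.96 (adjusted p = 0.035) with scan date blocked, and the scavenger receptor Cd163 by 0.11 (adjusted p = 0.77). The cannabinoid receptor gene Cnr1 was at 7.03, 7.29 and 7.93 against 5.02, 5.89 and 6.17, a difference of -1.57 ± 0.26 (adjusted p = 6.18e-05), or -1.44 (adjusted p = 0.20) with scan date blocked, and its effect at D30 was -0.06. Esm1 (endocan), secreted by activated endothelium, was at 10.65, 11.70 and 12.13 against 9.57, 10.16 and 10.26, a difference of -1.52, but vehicle replicate 3 was its lowest vehicle rat and the difference was -0.58 (adjusted p = 0.57) with scan date blocked. Hsd11b1, which regenerates active glucocorticoid, was at 12.65, 13.07 and 13.30 against 11.39, 12.09 and 12.39, a difference of -1.02 (adjusted p = 0.000826), again with replicate 3 lowest in vehicle, and it was -0.62 (adjusted p = 0.35) with scan date blocked. It fell short of 2-fold without vehicle replicate 2 or 4 or DQ-12 replicate 2 or 6.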

How the data were processed

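Total RNA was hybridised on 1-colour Agilent arrays, and the authors deposited the scanner output of Agilent Feature Extraction 12.0.1.1 with background-corrected intensity per spot, plus a table of normalized log2 values that was used only as an alternative. Spots that were controls or outliers were left out, spots of a probe were averaged on the log2 scale, 42200 probes were kept that exceeded, on 6 or more of 36 arrays, the level below which 95% of negative control spots lay, values were quantile normalized, and the brightest probe stood for each of 23940 genes. Group means of all 36 arrays were fitted with limma 3.58.1 in R 4.3.3 (lmFit, eBayes, Benjamini-Hochberg), without a batch term, since the study's batch variable is not named in the sources used here. Figures were drawn with matplotlib 3.10.9. Alternatives were 75th percentile scaling, normexp, filters, blocks, array weights and leaving out each rat. Tested on simulated data for D1 with 200 of 23940 genes changed, the fit recovered 76%, 90% and 98% at log2 changes of 1.5, 2 and 3. The simulated noise was independent between arrays, without a scan date or slide effect. These shares therefore do not bear on the overlap of scan date and exposure. The number of arrays limits the precision.

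Genes were named by size (15 rises and 12 falls called at D1 with separated groups and at least 3 arrays of each group well above background), by adjusted p within the 41 lists, by size among genes called in all 3 fits, and by the D1 and D30 difference. The comparison and the lists were chosen with earlier results of these data known, and 8 further lists, 3 promoter motifs and other genes given as values were chosen after the values were seen. Replicate numbers did not pair the rats. The result for 1 gene is not reported here.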

Additional observations from a re-analysis of the deposited data

Results flagged for a closer look

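Of 224 groups of 6 rats examined (112 named genes, vehicle and DQ-12), 28 held 1 rat far from the others, where chance gives about 1 in 20. In DQ-12 replicate 1 the level (log2) stood apart for Muc5b at 3.83. In DQ-12 replicate 2 the level (log2) stood apart for Syndig1 at 6.36, Cnr1 at 5.02, Cldn8 at 4.7, Nfkb2 at 10.68, Mt2A at 12.13, Timp1 at 14.98, Pla2g10 at 3.92, Bax at 12.76, Cyp3a9 at 7.33, Fcrla at 9.43, Ms4a1 at 8.53 and Wt1 at 5.86. In DQ-12 replicate 3 the level (log2) stood apart for Esm1 at 9.57. In DQ-12 replicate 4 the level (log2) stood apart for Rtkn2 at 8.58. In DQ-12 replicate 5 the level (log2) stood apart for C3 at 14.42, Scn10a at 4.8 and Myh1 at 10.2. In DQ-12 replicate 6 the level (log2) stood apart for Ccl17 at 10.31, Mmp7 at 8.13 and Vsig4 at 8.54. In vehicle replicate 1 the level (log2) stood apart for Inmt at 12.4 and Ankrd1 at 10.64. In vehicle replicate 3 the level (log2) stood apart for Fosl1 at 3.06 and Klrd1 at 9.02. In vehicle replicate 4 the level (log2) stood apart for Myh1 at 3.92. In vehicle replicate 6 the level (log2) stood apart for Tk1 at 8.7 and Mvd at 10.25.

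The exposure effect of 26 named genes at D1 differed from that at D30 by the same model (limma, difference of at least 2-fold with an adjusted p under 0.05 over all genes tested). The log2 effect at D1 minus that at D30 was above 0 for Ankrd1 (1.2), Asf1b (1.51), Bub1b (1.68), Ccna2 (1.43), Cdc6 (1.86), Cdk1 (1.42), Celf4 (3.03), E2f8 (2.02), Eme1 (2.48), Foxn4 (2.64), Il24 (3.79), Mki67 (1.28), Pbk (2.54), Stil (2.54), Timp1 (1.21), Tk1 (1.7), Tnc (1.66), Top2a (2.18) and Wfdc18 (2.17). It was below 0 for Cd177 (-1.96), Cnr1 (-1.51), Cyp3a9 (-1.06), Esm1 (-1.2), LOC102547538 (-2.87), Tnfaip2 (-1.26) and Vsig4 (-3.86). With scan date or slide as a block, 30 of the 23940 genes differed between D1 and D30, against 226 without.

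The exposure effect of 19 named genes at D1 differed from that at D180 by the same model (limma, difference of at least 2-fold with an adjusted p under 0.05 over all genes tested). The log2 effect at D1 minus that at D180 was above 0 for Celf4 (3.2), Pbk (1.74), Tk1 (1.12), Tnc (2.21) and Top2a (1.2). It was below 0 for Ccl2 (-1.98), Ccl7 (-2.02), Cd177 (-1.61), Cnr1 (-1.26), Cyp3a9 (-1.3), Fabp4 (-1.65), Gpnmb (-1.07), Hsd11b1 (-1.74), LOC102547538 (-2.7), Mmp12 (-1.56), Orm1 (-2.49), Slc7a11 (-1.65), Tnfaip2 (-1.76) and Vsig4 (-3.56).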

How the results depend on the processing

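Block, scaling and background correction moved the counts of called genes. Genes called higher at D1 numbered 484, with 178 by normexp, 131 with scan date and 127 with slide as a block, and 960 at a fold of 1.5. Genes called lower numbered 252, with 577 by 75th percentile scaling, 573 in the deposited log2 values, 36 by normexp, 45 with scan date and 72 with slide as a block, 79 and 126 with these as random blocks, and 882 at a fold of 1.5. Both directions together numbered 736, with 214, 176 and 199 by normexp, scan date and slide, 405 and 484 with the random blocks, and 1842 at a fold of 1.5. The D1 and D30 difference held 226 genes, or 30 with either block, and the D1 and D180 difference 372, or 107 with scan date. Leaving out 1 rat gave 421 to 592 genes higher, 156 (without DQ-12 replicate 2) to 363 (without vehicle replicate 3) lower and 581 to 955 in all. The cause of these shifts was not tested. Cyp1a2 changed sign, from -1.94 to 0.1286 with scan date and 0.1449 with slide as a block. With the replicate number as a block, 742 genes were called (482 higher, 260 lower), 714 of them among the 736. Rats of equal number correlated at -0.0548 to 0.165 in their deviations, and only replicate 6 correlated best with its own number. Of the values of named genes under the alternatives, 1367 kept direction and side of the threshold (or, with no test, stayed within the spread between rats), 232 lost the call, 1 gained it, 4 turned sign in a called gene and 69 moved beyond that spread or turned sign in an uncalled one. Dim signal limits genes not well above background in vehicle.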
